A study of Mus musculus with 15 samples.

Results

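Aminoacyl-tRNA synthetase genes encode the enzymes that load each transfer RNA with its amino acid before protein synthesis. They were picked by name from the deposited expression table, as 36 of its 23284 genes. The members comprise 20 genes of the cytosolic enzymes and 16 of the mitochondrial enzymes, written with the older symbols of the table (Aars, not Aars1). Values came from kidneys of wild-type (WT) mice in 3 groups of 5 libraries: D-alanine (D-ala), L-alanine (L-ala) and vehicle, all labelled with a time of 2 h. The groups shared genotype, tissue and time and carried no other labelled agent. No dose, route, make-up of the vehicle or age of the mice is given in the sources used here, so the mirror forms cannot be said to have been given at matched doses. The labels do not say that the libraries came from separate animals. The p-values therefore measure the spread between these libraries, which may be technical.

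A synthetase first joins its amino acid to ATP and then passes it to the matching transfer RNA. When an amino acid runs short, uncharged transfer RNA activates the kinase GCN2, which phosphorylates the translation factor eIF2alpha and so raises translation of the transcription factor ATF4. ATF4 is known to raise many cytosolic synthetase genes together with genes of amino acid uptake and synthesis, and other kinases that sense stress reach ATF4 through the same step. Synthetases act mainly on the L-form of amino acids, and separate enzymes remove D-amino acids from transfer RNA. The comparison of D-ala with vehicle asks what D-alanine changed among these genes, and the comparisons with L-ala ask where the mirror forms differed.

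ATF4 binds DNA together with C/EBP factors at a composite element whose core can be written TGATGNAA. RefSeq start-site windows on GRCm38.p6, 250 bases before to 50 after each start, were at hand for 27 of the 36 members, and the letters were searched on both strands. The element was found in 5 of the 27 members, Aars, Gars, Iars, Tars and Yars, all of them among the 13 cytosolic members with a window. It was found in 0 of 14 mitochondrial members and in 3.97% of all 32851 windows. Matches are shown for the 5 members that held the element. Of the members higher in D-ala kidneys than in either other group, Aars and Iars held it. Eprs, also higher than in either other group, had a window without it. Matches in the windows of Asns and Trib3, genes widely used to read ATF4 activity, are set beside those of the members. Each line runs 5′ to 3′ on the strand of the gene. The capitals mark the element, or its reverse complement where it lies on the opposite strand.

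Aars, after the start: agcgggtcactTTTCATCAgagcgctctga
Gars, before the start: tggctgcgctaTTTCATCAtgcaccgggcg
Iars, after the start: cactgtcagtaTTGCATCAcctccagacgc
Tars, before the start: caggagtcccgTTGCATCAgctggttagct
Yars, after the start: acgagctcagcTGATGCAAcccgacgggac
Asns, before the start: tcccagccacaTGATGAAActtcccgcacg
Trib3, after the start: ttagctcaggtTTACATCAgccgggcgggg

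The printed 30-base stretch around the Aars match lies at chr8:111033840-111033869 on the plus strand, and that of Iars at chr13:49682126-49682155, also on the plus strand. Those of Gars (chr6:55037960-55037989) and Yars (chr4:129189895-129189924) lie on the plus strand, and that of Tars (chr15:11399655-11399684) on the minus strand. A match describes letters in a window and does not show that the factor binds there. Of the 7 members higher under D-ala than under vehicle that had a window, 2 held the element.

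The libraries held 7.57 to 10.94 M recovered reads each. All 8 tubule markers were detected, with summed FPKM (fragment counts per transcript length and library depth) of 75624 to 102038 in D-ala, 105945 to 141978 in L-ala and 84676 to 103692 in vehicle kidneys. Most of that sum was Kap, a proximal tubule gene, with 72069 to 98064 FPKM in D-ala, 102031 to 138266 in L-ala and 80588 to 99849 in vehicle kidneys. Of the 8 tubule markers, 2 were called higher and 1 lower under D-ala, and 3 higher and 1 lower (Umod, -0.43) under L-ala, each against vehicle. Over all tested genes these shares were 6.53% and 4.92% under D-ala, and 6.48% and 4.53% under L-ala. Testing was limited to the 11781 genes that reached 1 FPKM in 5 or more libraries, and every one of the 36 members passed, the lowest member value being 2.37 FPKM in any library. Calls required an adjusted p (Benjamini-Hochberg, over all tested genes) under 0.05 from limma on log2(FPKM + 1). Markers of other cells moved between groups: the 5 neutrophil markers summed to 4.65 to 17 FPKM in D-ala, 17.7 to 39.3 in L-ala and 5.63 to 12.9 in vehicle kidneys, and the 6 endothelial markers to 42 to 60.9 in D-ala, 37.6 to 75.5 in L-ala and 53.4 to 87.5 in vehicle kidneys. All 6 endothelial markers stood below 0 against vehicle under D-ala and under L-ala. Called lower were 1 of them under D-ala (Pecam1) and 4 under L-ala (Pecam1, Kdr, Cdh5 and Flt1), beside 4.92% and 4.53% of all tested genes. The 7 macrophage markers summed to 104 to 159 FPKM in D-ala, 117 to 200 in L-ala and 140 to 246 in vehicle kidneys. Of the 6 that were tested, all stood below 0 for D-ala against vehicle and 2 were called lower, Lyz2 (-0.91, limma adjusted p = 2.66e-05) and C1qb (-0.55, 0.0237). L-ala replicate 5 stood apart: without it, calls over all genes numbered 2580 in place of 1297 for L-ala against vehicle, and 2761 in place of 1611 for D-ala against L-ala. Called synthetases without it numbered 9 for D-ala against vehicle, 2 for L-ala against vehicle (Fars2 and Hars) and 3 for D-ala against L-ala (Aars, Eprs and Iars). In whole tissue, fewer cells of a type and less RNA per cell cannot be told apart.

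The members differed widely in level. In vehicle kidneys the asparaginyl enzyme gene Nars was highest at 57.6 ± 3.01 FPKM (mean ± SD, n = 5), followed by Qars, for glutaminyl-tRNA, at 55.8 ± 3.35 and Dars, for aspartyl-tRNA, at 49.1 ± 3.18. The lowest was mitochondrial Wars2, for tryptophanyl-tRNA, at 2.75 ± 0.148 FPKM, next to Mars2 at 3.01 ± 0.129 and Pars2 at 3.32 ± 0.601. Ordered by vehicle level, 16 of the 35 neighbouring pairs were apart by more than the larger of their SDs and the other 19 were not. Cytosolic genes had a median vehicle level of 21.7 FPKM (6.83 to 57.6) and mitochondrial genes one of 9.83 FPKM (2.75 to 47.1).

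Pairs were formed where the mitochondrial gene carries the cytosolic symbol with a 2 added. The cytosolic gene was the higher one in 8 of these 13 pairs in vehicle kidneys. Phenylalanine, glutamate and proline were not paired in this way. Vehicle means for phenylalanine were 15.6 (Farsa), 24.5 (Farsb) and 36.1 FPKM (mitochondrial Fars2). Eprs, for glutamate and proline, stood at 20.8 FPKM, mitochondrial Ears2 at 6.95 and Pars2 at 3.32. Over the 13 pairs, the ratio of the cytosolic to the mitochondrial level ranged from 10.6 for asparagine (Nars over Nars2) to 0.217 for isoleucine (Iars over Iars2). The mitochondrial gene was also higher for leucine, cysteine and tyrosine, at ratios of 0.22, 0.38 and 0.691, and barely so for threonine, at 0.992. For alanine the cytosolic gene stood at a ratio of 3.37 in D-ala, 2.82 in L-ala and 2.91 in vehicle kidneys. Lysyl and glycyl enzymes of both compartments come from the same genes, Kars and Gars.

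**Figure D1:**
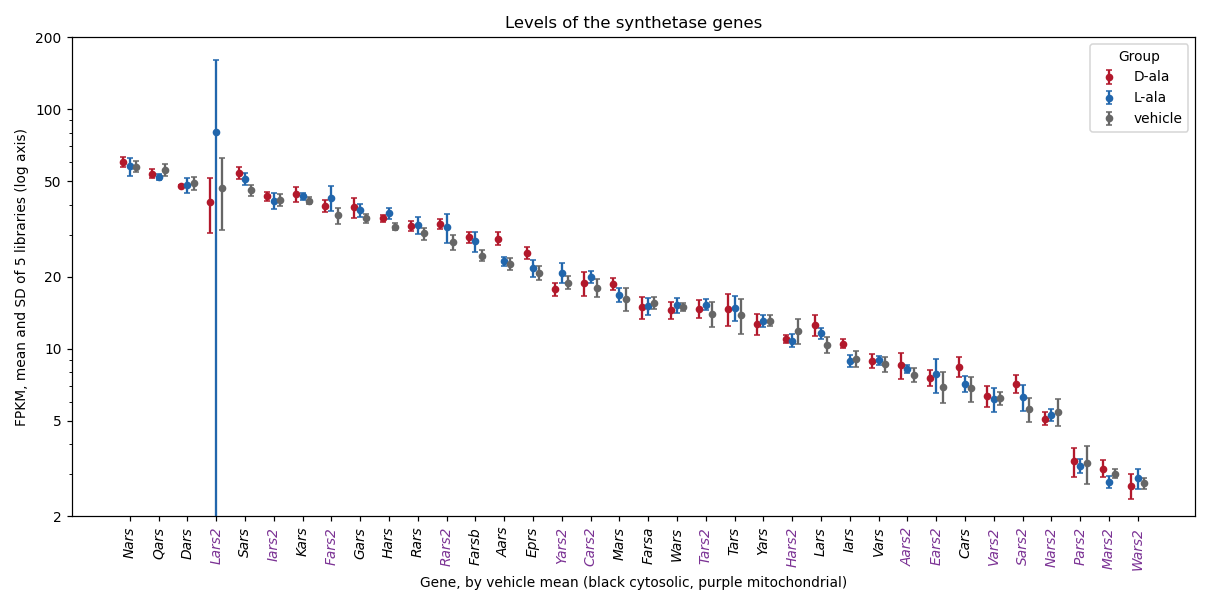
Level of each synthetase gene in FPKM on a log axis, as mean and SD over the 5 libraries of D-ala, L-ala and vehicle kidneys, in order of the vehicle mean, from Nars at 57.6 to Wars2 at 2.75. The long bar of Lars2 in L-ala kidneys, which runs off the lower edge, comes from the L-ala library at 222.3 FPKM.

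Under D-ala, 9 of the 36 members were higher than in vehicle kidneys and 0 were lower, while 6.53% of all tested genes were called higher and 4.92% lower. The 9 were Aars, Cars, Eprs, Farsb, Iars, Lars and Sars of the cytosol and Rars2 and Sars2 of the mitochondrion. The changes were small, with group means 1.16 to 1.28 times the vehicle mean. The median log2 fold change of the 36 members was 0.08 (0.01 with limma voom on the rescaled counts), beside 0.00 over all tested genes (-0.06 with voom), and 26 of them were above 0. In 7 members every D-ala library lay above every vehicle library, against 6.12% of all tested genes. Without limma's adjustment for the number of genes, 12 of the 36 members had p under 0.05 in the fit over all genes, beside 26.5% of all tested genes.

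**Figure D2:**
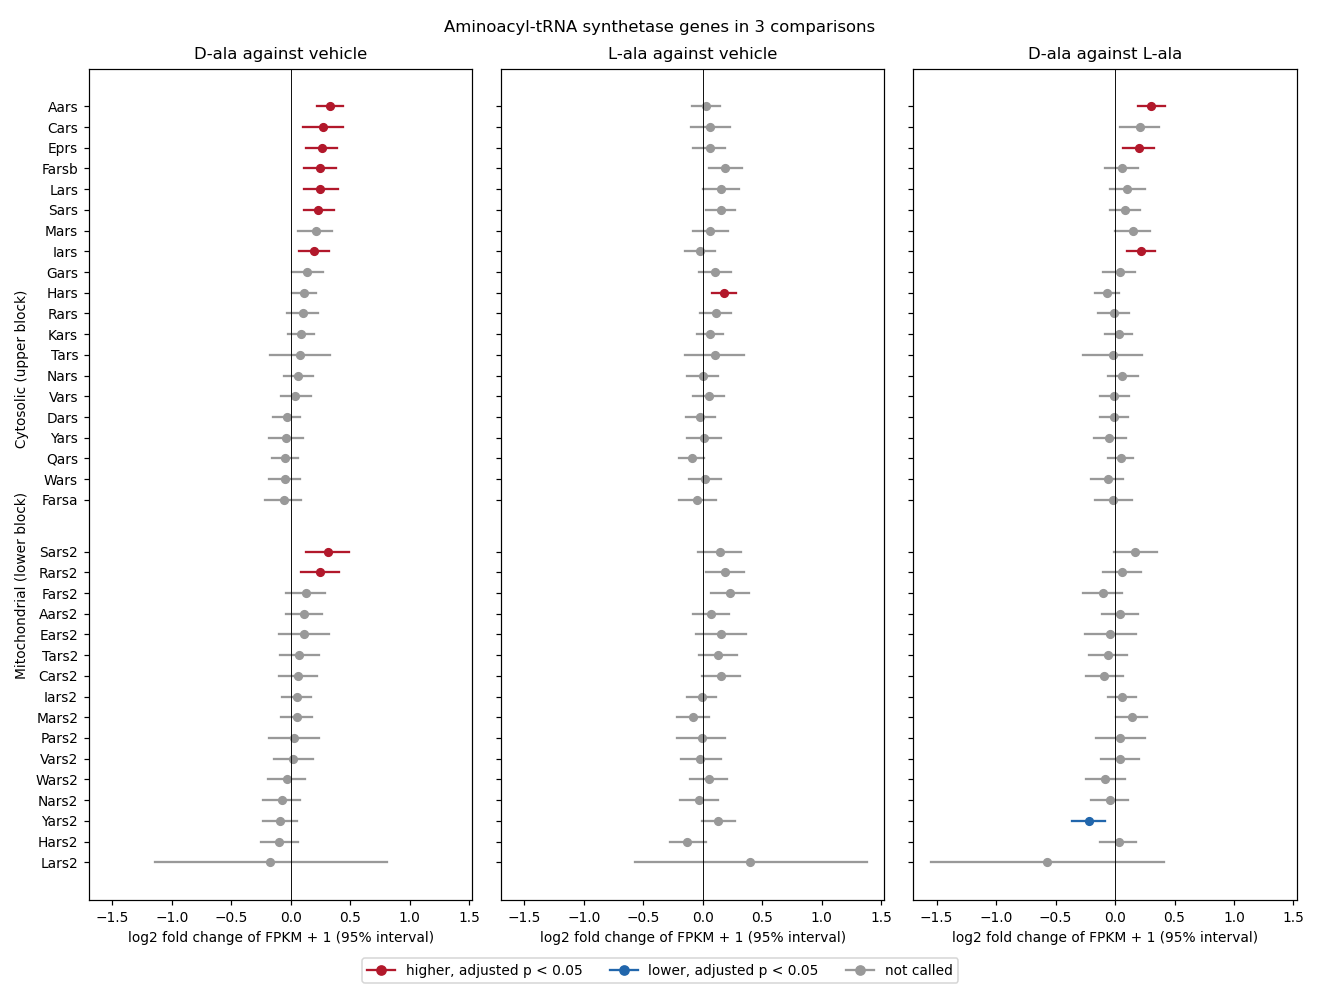
Log2 fold change of FPKM + 1 (horizontal axis) with its 95% interval for each of the 36 members (vertical axis, cytosolic genes above, mitochondrial genes below) for D-ala over vehicle (left), L-ala over vehicle (middle) and D-ala over L-ala (right). Coloured points passed an adjusted p of 0.05: 9 in the left panel, 1 in the middle and 4 on the right, where Yars2 is the blue point below 0.

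The cytosolic alanyl-tRNA synthetase Aars (chr8:111033144-111057664, plus strand) had the smallest adjusted p of all members. It had 28.1, 31.8, 28.7, 28.4 and 26.98 FPKM in D-ala kidneys, 22.8, 23.5, 22.5, 22.4 and 24.7 in L-ala kidneys and 24.8, 22.6, 21.2, 22.3 and 22.6 in vehicle kidneys. All 5 D-ala libraries stood above all 10 others, and the L-ala and vehicle libraries overlapped. The means were 28.8 ± 1.79 FPKM in D-ala, 23.2 ± 0.973 in L-ala and 22.7 ± 1.28 in vehicle kidneys (SD, n = 5 each), and the log2 fold change of D-ala against vehicle was 0.33 ± 0.05 (SE, 95% interval 0.22 to 0.44, limma adjusted p = 0.00109). Against L-ala it was 0.30 ± 0.05 (SE, 95% interval 0.19 to 0.42, limma adjusted p = 0.00321). L-ala against vehicle gave 0.03 ± 0.05 (SE; limma adjusted p = 0.753). Aars was thus higher under D-ala than in either other group and was not shown to differ between L-ala and vehicle. Exosc6, a subunit of the RNA exosome whose annotated gene shares 1326 bases with Aars on the same strand, had a log2 fold change of -0.32 ± 0.10 (SE) for D-ala against vehicle (limma adjusted p = 0.0494), the opposite sign to Aars.

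The mitochondrial alanyl enzyme gene Aars2 (chr17:45506841-45520843, plus strand) did not pass in any of the 3 comparisons. Its libraries held 7.67, 8.86, 8.62, 7.49 and 10.1 FPKM in D-ala, 8.62, 8.14, 7.94, 7.95 and 8.44 in L-ala and 8.18, 7.72, 8.14, 6.898 and 8.04 in vehicle kidneys. The groups overlapped, although D-ala replicate 5 was the highest library. D-ala against vehicle was 0.11 with a 95% interval of -0.04 to 0.26 (limma adjusted p = 0.339), so a rise as large as those of Aars and Sars2 lay outside the interval.

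**Figure D3:**
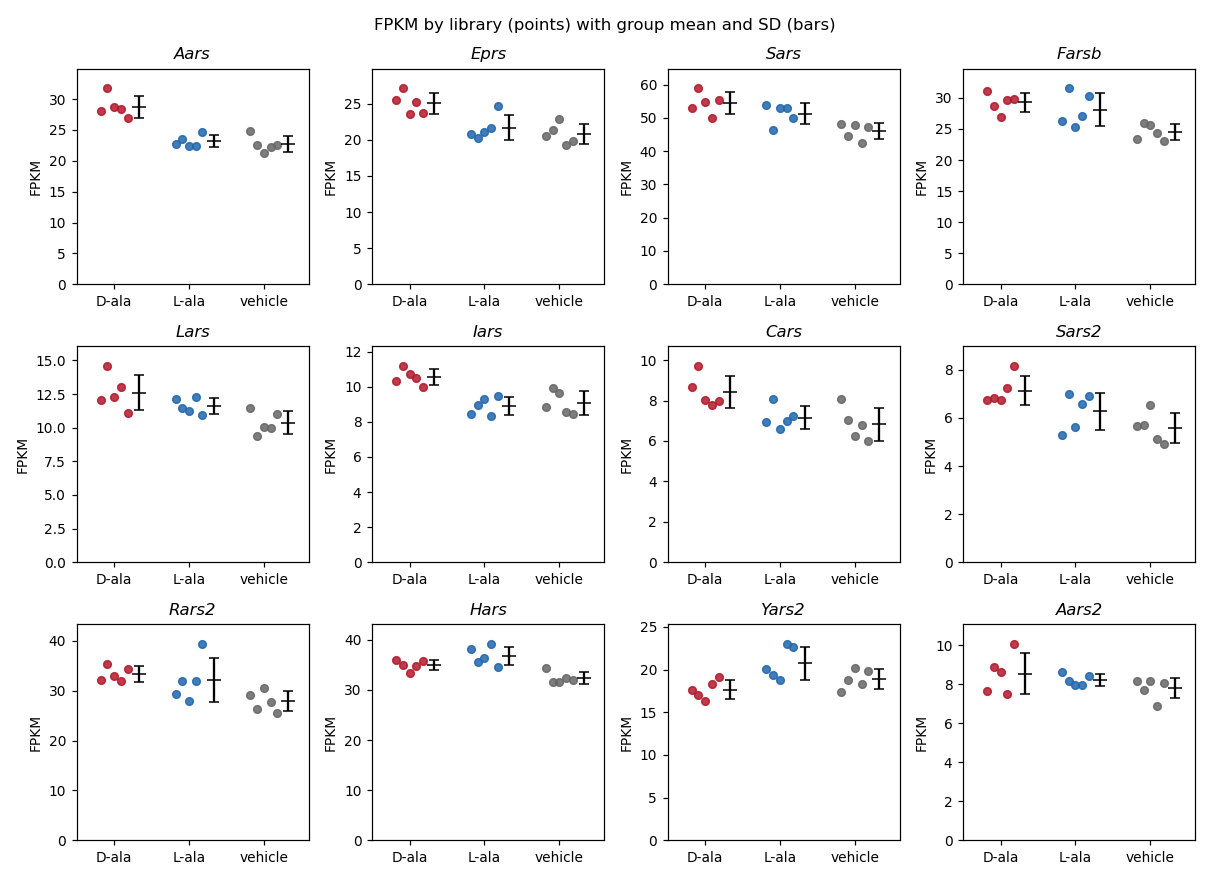
FPKM of 12 members in each library (points, replicates 1 to 5 from left to right) with the group mean and SD (bars) in D-ala, L-ala and vehicle kidneys, each vertical axis starting at 0. For Aars and Iars the 5 D-ala points sit above every L-ala and vehicle point, and for Yars2 they sit low against L-ala.

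Several of the members that rose belong to the multi-synthetase complex, a cytosolic assembly of 8 synthetase genes and 3 scaffold proteins. Eprs (chr1:185363044-185428360, plus strand) encodes a fused enzyme that charges both glutamate and proline transfer RNA. Its level was 25.6, 27.1, 23.5, 25.3 and 23.8 FPKM in D-ala, 20.7, 20.3, 21.1, 21.6 and 24.7 in L-ala and 20.5, 21.4, 22.9, 19.3 and 19.9 in vehicle kidneys. Every D-ala library exceeded every vehicle library, and among the L-ala libraries replicate 5 reached into the D-ala range. Under D-ala Eprs rose by 0.26 ± 0.06 (SE, 95% interval 0.13 to 0.39, limma adjusted p = 0.0137) on the log2 scale. Against L-ala it was 0.20 ± 0.06 (SE; limma adjusted p = 0.043). That second call ended in 10 of 15 fits with 1 library left out, with adjusted p from 0.0511 to 0.0936: D-ala replicates 1 to 4, L-ala replicates 1 to 4 and vehicle replicates 1 and 2.

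Iars (chr13:49682100-49734267, plus strand), the isoleucyl enzyme gene, was the other complex member higher in D-ala kidneys than in either other group. The values were 10.3, 11.2, 10.7, 10.5 and 10.01 FPKM in D-ala, 8.44, 8.97, 9.32, 8.34 and 9.48 in L-ala and 8.87, 9.93, 9.63, 8.56 and 8.43 in vehicle kidneys. The 5 D-ala libraries lay above the other 10, narrowly so against vehicle replicate 2. The log2 fold change was 0.20 ± 0.06 (SE, 95% interval 0.07 to 0.32, limma adjusted p = 0.0389) against vehicle, and 0.22 ± 0.06 (SE; limma adjusted p = 0.0226) against L-ala. The call against vehicle ended without any of D-ala replicates 1 to 4 or vehicle replicates 1, 4 and 5 (limma adjusted p 0.0593 to 0.1), and that against L-ala without D-ala replicate 2 or 3 or L-ala replicate 1 or 4 (0.0509 to 0.0619).

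Lars (chr18:42202298-42262194, minus strand), for leucyl-tRNA, also rose under D-ala. It had 12.1, 14.6, 12.3, 13.02 and 11.1 FPKM in D-ala, 12.2, 11.4, 11.3, 12.3 and 10.97 in L-ala and 11.5, 9.39, 10.1, 10.01 and 10.99 in vehicle kidneys. D-ala replicate 2 was highest, and the ranges overlapped, with D-ala replicate 5 below vehicle replicate 1. Against vehicle the log2 fold change was 0.25 ± 0.07 (SE, 95% interval 0.11 to 0.40, limma adjusted p = 0.0274). It no longer passed without D-ala replicate 2 or 4 or vehicle replicate 2, 3 or 4 (limma adjusted p 0.0528 to 0.0689).

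The other 5 synthetase genes of the complex did not pass in any comparison. Mars, for methionyl-tRNA, came closest at 0.21 ± 0.07 (SE; limma adjusted p = 0.0612). Kars, Rars, Dars and Qars gave log2 fold changes of 0.09, 0.10, -0.03 and -0.05 for D-ala against vehicle. The intervals of Dars and Qars, -0.15 to 0.08 and -0.16 to 0.06, left out a rise of the size seen for Iars. The complex members had a median of 0.15 and the 12 cytosolic genes outside it one of 0.09, with 3 of 8 and 4 of 12 called higher. Over all tested genes 6.53% were called higher. The scaffold genes Aimp1, Aimp2 and Eef1e1 did not follow the called synthetases: their log2 fold changes were -0.12, -0.09 and 0.05, none of them called.

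Among the cytosolic genes outside the complex, Sars (chr3:108424865-108445209, minus strand) charges serine transfer RNA and also the one for selenocysteine. It had 52.9, 58.9, 54.9, 49.8 and 55.2 FPKM in D-ala, 53.9, 46.3, 53.02, 52.9 and 50 in L-ala and 48.2, 44.5, 47.7, 42.5 and 47.2 in vehicle kidneys. All D-ala libraries exceeded all vehicle libraries, and 4 of the 5 L-ala libraries did so too. The fold change was 0.23 ± 0.06 (SE, 95% interval 0.11 to 0.36, limma adjusted p = 0.015) on the log2 scale for D-ala and 0.15 ± 0.06 (SE; limma adjusted p = 0.0932) for L-ala against vehicle. D-ala against L-ala gave 0.08, with a 95% interval of -0.04 to 0.21.

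Farsb (chr1:78417975-78488897, minus strand) encodes the beta subunit of the phenylalanyl enzyme, and Farsa the alpha subunit. Farsb stood at 31.2, 28.7, 26.96, 29.7 and 29.8 FPKM in D-ala, 26.3, 31.6, 25.3, 27.1 and 30.4 in L-ala and 23.3, 25.9, 25.6, 24.4 and 23.1 in vehicle kidneys. The D-ala libraries were all above the vehicle libraries, and the L-ala libraries spanned both, with replicate 2 the highest of all. Farsb rose under D-ala by 0.25 ± 0.06 (SE, 95% interval 0.11 to 0.38, limma adjusted p = 0.0187) on the log2 scale and stood at 0.19 ± 0.06 (SE) under L-ala (limma adjusted p = 0.0632). Without D-ala replicate 1 the D-ala call ended (limma adjusted p = 0.0538). Farsa averaged 14.9 ± 1.57 FPKM in D-ala, 15.1 ± 1.23 in L-ala and 15.6 ± 0.912 in vehicle kidneys, and D-ala against vehicle was -0.06 with a 95% interval of -0.22 to 0.09. The subunits of this enzyme thus differed in their calls, and the difference between them was not tested. The annotated Farsb gene shares 2315 bases with Sgpp2 on the opposite strand, and Sgpp2 was at -0.10 ± 0.06 (SE; limma adjusted p = 0.251).

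Cars (chr7:143557230-143600090, minus strand), for cysteinyl-tRNA, is the lowest cytosolic member. Its libraries held 8.68, 9.702, 8.01, 7.76 and 7.95 FPKM in D-ala, 6.95, 8.06, 6.59, 6.96 and 7.22 in L-ala and 8.07, 7.04, 6.24, 6.78 and 6.002 in vehicle kidneys. D-ala replicate 2 was highest, and vehicle replicate 1 and L-ala replicate 2 reached into the D-ala range. Cars rose by 0.27 ± 0.08 (SE, 95% interval 0.10 to 0.44, limma adjusted p = 0.0366), a call that ended without D-ala replicate 1 or 2 or any of vehicle replicates 2 to 5 (limma adjusted p 0.0506 to 0.0919).

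Of the mitochondrial enzymes, Sars2 and Rars2 rose under D-ala. Sars2 (chr7:28741992-28753871, plus strand) charges the mitochondrial serine transfer RNAs. It had 6.73, 6.82, 6.75, 7.24 and 8.15 FPKM in D-ala, 5.29, 7, 5.61, 6.56 and 6.91 in L-ala and 5.67, 5.72, 6.52, 5.12 and 4.91 in vehicle kidneys. All D-ala libraries lay above all vehicle libraries, and L-ala overlapped both. Sars2 rose by 0.31 ± 0.08 (SE, 95% interval 0.13 to 0.49, limma adjusted p = 0.0282) on the log2 scale, and it no longer passed without D-ala replicate 5, vehicle replicate 4 or vehicle replicate 5 (limma adjusted p 0.0675 to 0.0765).

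Rars2 (chr4:34614957-34660167, plus strand), the mitochondrial arginyl enzyme gene, had 32.1, 35.5, 32.97, 31.9 and 34.4 FPKM in D-ala, 29.3, 31.9, 28, 31.9 and 39.4 in L-ala and 29.2, 26.4, 30.5, 27.8 and 25.5 in vehicle kidneys. The D-ala libraries again stood above the vehicle libraries, while L-ala replicate 5 exceeded all of them. Its log2 fold change was 0.25 ± 0.08 (SE, 95% interval 0.09 to 0.41, limma adjusted p = 0.0446). It ended in 11 of 15 fits with 1 library left out (limma adjusted p 0.0502 to 0.0983), those without any D-ala replicate, L-ala replicate 2 or 4, or vehicle replicate 1, 2, 4 or 5.

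The other 14 mitochondrial genes were not called under D-ala, with log2 fold changes of -0.17 (Lars2) to 0.13 (Fars2). All 16 mitochondrial genes had a median of 0.05 and the 20 cytosolic genes one of 0.10. Lars2 could not be read at this spread: L-ala replicate 4 held 222.3 FPKM, the other L-ala libraries 31.3 to 61.9, the D-ala libraries 31.03 to 56.4 and the vehicle libraries 27.5 to 70.4. The 95% interval for D-ala against vehicle was -1.14 to 0.81. Of the structural classes of synthetases, class I had 5 of 19 members higher and class II 4 of 17, beside 6.53% of all tested genes.

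A list of genes that other work has placed under ATF4 holds 12 of the 20 cytosolic members. It was chosen with earlier results of these data known. Of the 12, Aars, Cars, Eprs, Iars, Lars and Sars rose under D-ala, and the median of the 12 was 0.20. Of the 8 cytosolic genes outside that list, 1 rose (Farsb), and their median was 0.07. Over all tested genes 6.53% were called higher. The difference between listed and other genes was not tested. Gars, Tars and Yars, which hold the element printed above, were not called, with log2 fold changes of 0.14 (95% interval 0.01 to 0.27), 0.08 (-0.17 to 0.33) and -0.04 (-0.18 to 0.10). Nars and Wars of the list stood at 0.06 and -0.05.

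D-ala replicate 2 was high for many members. It was the highest D-ala library for 14 of the 20 cytosolic genes and 6 of the 16 mitochondrial genes, and the cytosolic genes summed to 602 FPKM there and to 553 to 561 FPKM in the other D-ala libraries. The sums were 532 to 562 FPKM in L-ala and 508 to 546 FPKM in vehicle kidneys, so the other 4 D-ala libraries also exceeded every vehicle library. The same library had the highest sums of adipocyte (490 FPKM), red cell (456), neutrophil (17) and podocyte (77) markers and the lowest sums of tubule (mostly Kap), endothelial (42) and macrophage (104) markers among D-ala libraries. Without it 5 members were called: Aars, Eprs, Farsb, Sars and Sars2. The count was also 5 without D-ala replicate 1 or vehicle replicate 5, and 4 without vehicle replicate 4. The part of other cell types in these values was not tested.

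**Figure D4:**
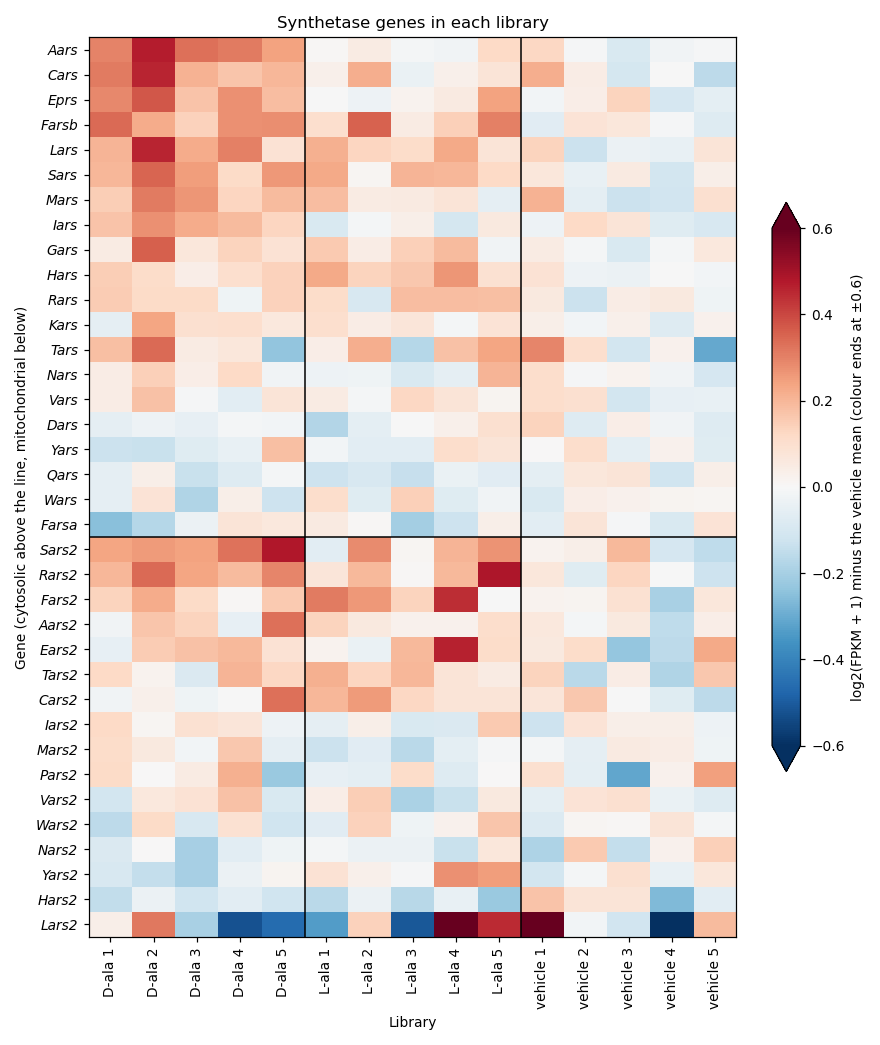
Log2(FPKM + 1) minus the vehicle mean of the gene (colour, red above and blue below, ending at ±0.6) for each member (rows, cytosolic above the line) in each library (columns, D-ala, L-ala and vehicle). The red block at the top left holds the cytosolic genes that rose under D-ala, with D-ala 2 the darkest column, and the bottom row, Lars2, varies within every group.

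Under L-ala, 1 of the 36 members was higher than in vehicle kidneys and 0 were lower, while 6.48% of all tested genes were called higher and 4.53% lower. That member was Hars. At an unadjusted p under 0.05 in limma there were 6 of the 36 members, beside 30.5% of all tested genes. The median of the 36 was 0.06 (-0.04 with voom), beside 0.01 over all tested genes (-0.10 with voom), and 26 were above 0. The red cell markers summed to 34.9 to 456 FPKM in D-ala, 262 to 744 in L-ala and 16.2 to 255 in vehicle kidneys. This sum, like that of the neutrophil markers, was higher in every L-ala library than in any vehicle library. Marker by marker this held for 1 of 4 tested red cell markers, Hba-a1, and 0 of the 4 were called. It held for 2 of 3 tested neutrophil markers, both called higher, while Lcn2 stood at -0.07. The part of these cells in the synthetase values was not tested. Hars (chr18:36766528-36783205, minus strand), the cytosolic histidyl enzyme gene, had 35.99, 34.99, 33.32, 34.75 and 35.72 FPKM in D-ala, 38.13, 35.62, 36.36, 39.17 and 34.55 in L-ala and 34.45, 31.67, 31.61, 32.34 and 31.96 in vehicle kidneys. All L-ala libraries lay above all vehicle libraries, as in 4.01% of all tested genes, and narrowly so for L-ala replicate 5 against vehicle replicate 1. The log2 fold change was 0.18 ± 0.05 (SE, 95% interval 0.08 to 0.28, limma adjusted p = 0.0286), and for D-ala against vehicle it was 0.11 ± 0.05 (SE; limma adjusted p = 0.156). D-ala against L-ala gave -0.07 with a 95% interval of -0.17 to 0.03, so the mirror forms were not shown to differ in Hars.

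The Hars call rested on many libraries and on the scaling. It ended without L-ala replicate 1 or 4 or vehicle replicate 2, 3 or 4 (limma adjusted p 0.0532 to 0.0793), and quantile normalization brought the log2 fold change to 0.08 (limma adjusted p = 0.256). Hars and the mitochondrial gene Hars2 lie head to head on opposite strands and share 198 annotated bases, and the use of strand in counting is not given in the sources used here. Hars2 stood at -0.13 ± 0.07 (SE) under L-ala. Fars2, the mitochondrial phenylalanyl enzyme gene, and Farsb were next in line under L-ala, at 0.23 (limma adjusted p = 0.0631) and 0.19; Fars2 passed without L-ala replicate 5 and Farsb without L-ala replicate 3. No member was called under both amino acids against vehicle. These comparisons share their vehicle libraries, so their values are given side by side and not correlated.

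Between the mirror forms themselves, 3 members were higher in D-ala than in L-ala kidneys and 1 was lower, while 7.01% of all tested genes were called higher and 6.66% lower. The higher ones were Aars, Eprs and Iars, all of which were also higher than in vehicle kidneys. In Aars and Iars every D-ala library lay above every L-ala library, against 5.08% of all tested genes. The median of the 36 was 0.03, beside -0.01 over all tested genes. For the other members that rose under D-ala, D-ala against L-ala gave 0.21 for Cars (95% interval 0.04 to 0.37), 0.17 for Sars2 (-0.01 to 0.35) and 0.10 for Lars (-0.04 to 0.25). It was 0.08 for Sars (-0.04 to 0.21), 0.06 for Farsb (-0.08 to 0.19) and 0.06 for Rars2 (-0.10 to 0.22). For none of these was a difference between the mirror forms called. The intervals are not adjusted for the number of genes, and that of Cars left out 0 although its limma adjusted p was 0.0872. They allow differences up to 0.37.

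Yars2 (chr16:16302965-16309640, plus strand), the mitochondrial tyrosyl enzyme gene, was the member lower under D-ala than under L-ala. It had 17.6, 16.98, 16.3, 18.4 and 19.1 FPKM in D-ala, 20.1, 19.3, 18.8, 23 and 22.6 in L-ala and 17.4, 18.7, 20.2, 18.3 and 19.8 in vehicle kidneys. D-ala libraries were mostly below L-ala libraries, with D-ala replicate 5 above L-ala replicate 3, and the vehicle libraries overlapped both. The log2 fold change was -0.22 ± 0.07 (SE, 95% interval -0.36 to -0.08, limma adjusted p = 0.0384). Against vehicle, D-ala gave -0.09 and L-ala 0.13, neither of them called. The call ended without any of D-ala replicates 1 to 4 or L-ala replicates 1, 4 and 5 (limma adjusted p 0.0533 to 0.107). The count of 4 members fell to 1, Aars, without D-ala replicate 2 or 3 or L-ala replicate 1 or 4, and to 2 without D-ala replicate 1 or 4.

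Against vehicle, the D-ala calls of Aars, Eprs and Sars held under every alternative run. Over 23 alternative settings, of which 15 left out a library, they passed in all 23, with limma adjusted p of 0.00052 to 0.00593 for Aars, 0.00568 to 0.0435 for Eprs and 0.0106 to 0.0485 for Sars. Aars against L-ala passed in all 23 as well (0.00128 to 0.0104). Farsb passed in 20, Sars2 in 18, Lars in 17, Iars in 14, Cars in 13 and Rars2 in 8.

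Around the synthetases, the genes that lead to ATF4 and feed back on it had called members with larger fold changes. Of 13 tested genes of that list, 5 rose under D-ala (Atf4, Ddit3, Ppp1r15a, Ppp1r15b and Cebpb) and 3 under L-ala (Ddit3, Ppp1r15a and Cebpb). Over all tested genes, 6.53% were called higher under D-ala and 6.48% under L-ala. Atf4 had 160.5, 199.9, 155, 147 and 136 FPKM in D-ala, 102, 99.2, 112, 112 and 95.96 in L-ala and 61.8, 83.2, 103, 88.1 and 77.9 in vehicle kidneys. All D-ala libraries stood above all L-ala and vehicle libraries. Atf4 rose by 0.95 ± 0.12 (SE, 95% interval 0.70 to 1.19, limma adjusted p = 8.83e-05) on the log2 scale against vehicle, and 0.60 ± 0.12 (SE; limma adjusted p = 0.0047) against L-ala. L-ala against vehicle was 0.35 with a 95% interval of 0.10 to 0.59 (limma adjusted p = 0.0614).

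Ppp1r15a and Ppp1r15b encode the subunits that bring a phosphatase to eIF2alpha. Ppp1r15a averaged 25.7 ± 0.98 FPKM in D-ala, 20 ± 2.43 in L-ala and 13.9 ± 2.82 in vehicle kidneys (SD, n = 5 each), and rose against vehicle under D-ala (0.86, limma adjusted p = 0.000126) and under L-ala (0.51, 0.0129). Ppp1r15b averaged 30.4 ± 2.27 FPKM in D-ala, 23.2 ± 2.46 in L-ala and 23.7 ± 1.56 in vehicle kidneys and rose against vehicle under D-ala (0.34, limma adjusted p = 0.00611). Its difference between D-ala and L-ala also passed (0.38, limma adjusted p = 0.00454). Ddit3, which encodes the stress factor CHOP, averaged 67.4 ± 15.4 FPKM in D-ala, 56.5 ± 12.5 in L-ala and 32.4 ± 8.19 in vehicle kidneys and rose by 1.04 (limma adjusted p = 0.00251) under D-ala and 0.79 (0.0195) under L-ala. The annotated Ddit3 gene shares 68 bases with Mars on the opposite strand. Cebpb, for a C/EBP factor, averaged 80.6 ± 41.1 FPKM in D-ala, 99.9 ± 29 in L-ala and 20.7 ± 12.5 in vehicle kidneys and rose under D-ala (1.93, limma adjusted p = 0.0114) and under L-ala (2.35, 0.00912).

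Between the mirror forms, 5 of the 13 genes were higher in D-ala than in L-ala kidneys (Atf4, Ppp1r15a, Ppp1r15b, Gcn1l1 and Eif2ak2) and 1 was lower. Over all tested genes 7.01% were higher and 6.66% lower. The lower gene of the list was Cebpg, for another C/EBP factor, at 9.42 ± 0.779 FPKM in D-ala, 11.5 ± 0.582 in L-ala and 10.9 ± 0.581 in vehicle kidneys (-0.26, limma adjusted p = 0.0134), with every D-ala library below every L-ala library. None of the 4 eIF2alpha kinase genes was called against vehicle. Eif2ak4, for GCN2, averaged 2.34 ± 0.412 FPKM in D-ala, 2.11 ± 0.205 in L-ala and 2.43 ± 0.137 in vehicle kidneys, a log2 fold change of -0.05 for D-ala against vehicle (95% interval -0.22 to 0.13). Gcn1l1, whose protein works with GCN2, was higher in D-ala than in L-ala kidneys (0.47, limma adjusted p = 0.0165), as was the kinase gene Eif2ak2, for PKR (0.34, limma adjusted p = 0.0202). Gcn1l1 and Eif2ak2 were chosen after their values were seen. Transcript level does not report kinase activity.

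Canonical targets of ATF4 in amino acid metabolism were mixed. Asns, for asparagine synthetase, averaged 2.09 ± 0.45 FPKM in D-ala, 2.08 ± 0.223 in L-ala and 2.35 ± 0.367 in vehicle kidneys, with -0.12 for D-ala against vehicle (95% interval -0.34 to 0.09, limma adjusted p = 0.48). Trib3, for a pseudokinase that restrains ATF4, was below the filter, at 0.615 ± 0.337 FPKM in D-ala, 0.626 ± 0.167 in L-ala and 0.548 ± 0.198 in vehicle kidneys. Both hold the element shown above. Of 16 tested genes of that list, Shmt2 and Slc3a2 rose and Slc38a2 fell under D-ala, beside 6.53% higher and 4.92% lower over all tested genes. Shmt2, a mitochondrial serine hydroxymethyltransferase gene, rose by 0.30 ± 0.06 (SE; limma adjusted p = 0.00402), and Slc3a2, the heavy chain of amino acid exchangers, by 0.67 ± 0.12 (0.00244). Slc38a2, a sodium-coupled neutral amino acid carrier that takes up alanine, averaged 10.5 ± 1.37 FPKM in D-ala, 10.2 ± 0.234 in L-ala and 19.1 ± 4.11 in vehicle kidneys. Its libraries under either amino acid lay below every vehicle library, with limma adjusted p of 0.000251 for D-ala and 0.000822 for L-ala. Under L-ala, Shmt2 (0.21, limma adjusted p = 0.0326) and Ddit4 rose and Slc38a2 fell, beside 6.48% higher and 4.53% lower over all tested genes. Ddit4, a stress-induced inhibitor of mTORC1 signalling, averaged 46.2 ± 12.9 FPKM in D-ala, 145 ± 50.7 in L-ala and 32.5 ± 28.4 in vehicle kidneys, and its L-ala libraries lay above all D-ala and vehicle libraries. Its log2 fold change against vehicle was 2.51 (limma adjusted p = 0.0146) under L-ala and 0.90 (0.285) under D-ala, and D-ala against L-ala was -1.61 (0.0549).

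**Figure D5:**
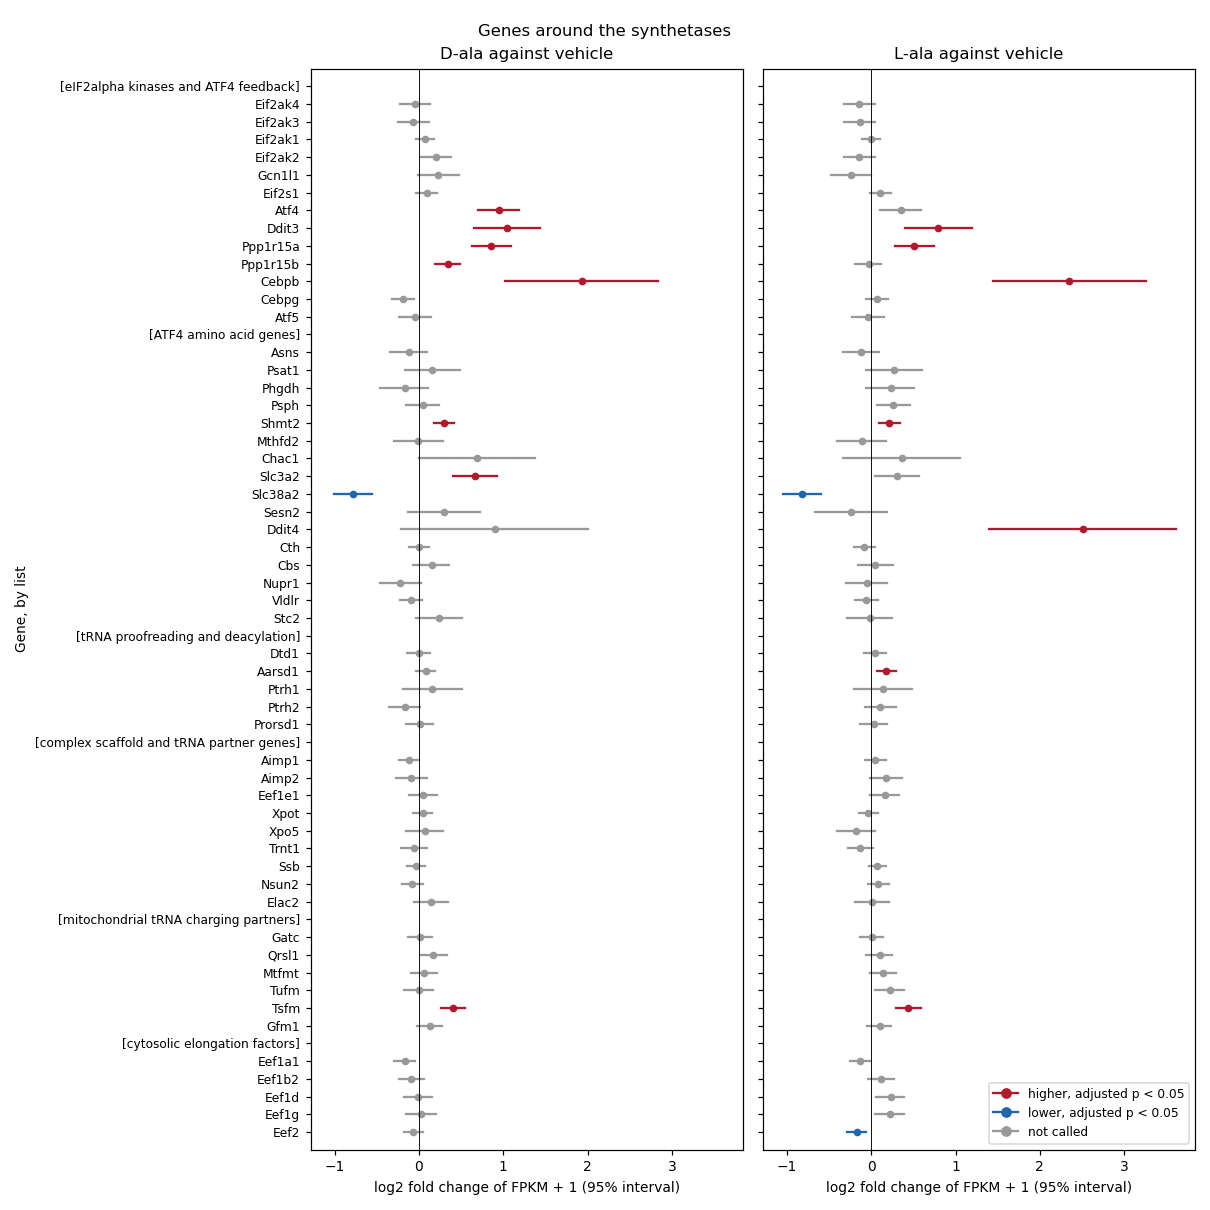
Log2 fold change of FPKM + 1 (horizontal axis) with its 95% interval for genes around the synthetases, by list (vertical axis), for D-ala over vehicle (left) and L-ala over vehicle (right). Atf4, Ddit3, Ppp1r15a and Ppp1r15b stand right of 0 at 0.34 to 1.04 in the left panel, while the proofreading and scaffold genes sit between -0.18 and 0.18 in both panels.

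Of 5 tested genes for enzymes that clear wrong or D-amino acids from transfer RNA, 0 were called under D-ala against vehicle by limma (0 also at an unadjusted p under 0.05), 1 was higher under L-ala against vehicle and 1 was lower in D-ala than in L-ala kidneys. Over all tested genes, 6.53% were higher and 4.92% lower under D-ala against vehicle, and 26.5% had an unadjusted p under 0.05 there. The shares were 6.48% higher under L-ala against vehicle and 6.66% lower in D-ala than in L-ala kidneys. Dtd1, the D-aminoacyl-tRNA deacylase, had 20.4, 19.9, 19.7, 17.9 and 21.8 FPKM in D-ala, 21.5, 20, 22.7, 20.9 and 18.6 in L-ala and 19.6, 20.1, 18.3, 20.4 and 21.3 in vehicle kidneys. The groups overlapped, and D-ala against vehicle had a 95% interval of -0.14 to 0.13 (limma adjusted p = 0.987). Dtd2, a related deacylase gene, was not analysed here. Aarsd1, whose protein removes serine from alanine transfer RNA, rose under L-ala (0.18 ± 0.05 SE, limma adjusted p = 0.036) and stood at 0.08 (-0.03 to 0.19) under D-ala. Every library of either amino acid lay above every vehicle library for Aarsd1, as in 6.12% of all tested genes for D-ala and 4.01% for L-ala. The mirror forms were not shown to differ in it (-0.10, limma adjusted p = 0.189). Ptrh2, a peptidyl-tRNA hydrolase gene, was lower under D-ala than under L-ala (-0.28, limma adjusted p = 0.0381).

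Of the 9 scaffold and transfer RNA partner genes, 0 were called by limma in any comparison. At an unadjusted p under 0.05 the counts were 0 for D-ala and 0 for L-ala, each against vehicle, and 5 between the mirror forms, beside 26.5%, 30.5% and 30.8% of all tested genes in these 3 comparisons. The mitochondrial elongation factor gene Tsfm, 1 of 6 mitochondrial partners, rose by 0.41 ± 0.07 (SE; limma adjusted p = 0.00154) under D-ala and by 0.44 ± 0.07 (0.00298) under L-ala. All libraries of either amino acid stood above all vehicle libraries for Tsfm, at means of 55.4 ± 4.08 FPKM in D-ala, 57 ± 5.23 in L-ala and 41.6 ± 3.1 in vehicle kidneys. Over all tested genes 6.53% were called higher under D-ala and 6.48% under L-ala, each against vehicle. Every library lay above every vehicle library in 6.12% of them under D-ala and in 4.01% under L-ala. Cytosolic elongation factors were not called under D-ala against vehicle. Eef2, which moves the ribosome along, was lower under L-ala than in vehicle kidneys (-0.17, limma adjusted p = 0.0499), and Eef1d was lower under D-ala than under L-ala (-0.24, limma adjusted p = 0.0493).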

How the data were processed

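Kidney RNA was taken up in TRIzol and made into stranded TruSeq messenger RNA libraries, per the labels' protocols. The submitters' processing notes name the build mm10 and SAMtools 0.1.19, Bowtie2 2.2.3 and TopHat2 2.0.13. No counting program, annotation or use of strand is given in the sources used here. The authors deposited FPKM for 23284 genes in 15 libraries, named so per the file headers. A deposited log2 column differed by at most 0.0012 from gene-centred log2 FPKM and was not tested. A deposited whole-number column held rescaled counts and was treated as a score; recovered depth and the voom alternative came from it. FPKM carry no counting interval, so precision is given as spread between libraries, and the smaller libraries carry more counting error.

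Fold changes are on the log2(FPKM + 1) scale, which understates changes of low genes. All 15 libraries entered a model of 3 group means in limma 3.58.1 (R 4.3.3; mean-variance trend, robust empirical Bayes), which was tested on simulated data. Replicate numbers follow sample order and pair nothing. Coordinates are GENCODE M21 on GRCm38, and start-site windows are from RefSeq on GRCm38.p6. The annotation holds 20911 of the table's symbols as written and 1915 as older symbols, and 458 had no match. The members and lists were chosen with earlier results of these data known. Named in full were members called in any comparison, Aars and Aars2; of the other lists, at most 3 called genes per list and comparison by smallest p, plus Dtd1, Aarsd1, Atf4, Ddit3, Trib3, Asns and Eif2ak4. Among the alternatives were another pseudocount (0.1), no filter, median-of-ratios and quantile scaling, fits of 2 groups, length and GC trends, and leaving out each library. A further promoter match is not reported here.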

Additional observations from a re-analysis of the deposited data

Results flagged for a closer look

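Single libraries stood apart from the other 4 of their group in 11 of 108 groups of 5 libraries examined, 3 groups for each of the 36 members. The measure was the gap to the nearest library over the group's range, above Dixon's 95% critical value, and chance gives about 1 in 20 such groups. The farthest in level was Lars2 in L-ala replicate 4, at 222.3 FPKM with the others at 31.3 to 61.9. L-ala replicate 5 was high for Eprs (24.74 FPKM, others 20.3 to 21.6) and for Nars (66.39, others 54.0 to 56.5). D-ala replicate 5 was high for Cars2 (22.75, others 17.6 to 18.3) and for Yars (14.92, others 11.8 to 12.6), and D-ala replicate 2 for Gars (45.33, others 36.3 to 38.6). Rars was low in D-ala replicate 4 (29.74, others 32.9 to 33.7) and in L-ala replicate 2 (28.31, others 32.7 to 34.6). Vehicle replicate 1 was high for Hars (34.45, others 31.6 to 32.3) and low for Wars (14.01, others 15.2 to 15.5). Fars2 was low in vehicle replicate 4 (31.28, others 36.4 to 38.3).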

How the results depend on the processing

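For D-ala against vehicle the 9 called synthetases became 3 with voom (Aars, Eprs, Sars) and 4 to 9 with 1 library left out; called genes ranged from 812 (without vehicle replicate 4) to 1592 (without L-ala replicate 5), with 1349 in the main fit. For L-ala against vehicle the 1 called synthetase became 0 in the fit of 2 groups and with the length trend removed, 2 with the GC trend removed (Farsb, Hars), 2 with voom (Hars2 and Qars, both lower) and 0 to 2 with 1 library left out; quantile scaling kept the count at 1 but called Qars, lower. The L-ala call was thus 1 higher as reported, and 0 higher with quantile scaling or voom. Called genes there were 1297, and 575 with quantile scaling, 603 in the fit of 2 groups, 720 with the length trend removed, 2126 with voom and 321 (without vehicle replicate 4) to 2580 (without L-ala replicate 5). For D-ala against L-ala the 4 called synthetases became 2 with no filter, 2 in the fit of 2 groups, 1 with the length trend removed and 1 to 4 with 1 library left out; called genes were 1611, 975 in the fit of 2 groups and 770 (without L-ala replicate 4) to 2761 (without L-ala replicate 5). The cause of these changes was not tested.

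Higher genes made up 57.0% of the calls for D-ala against vehicle (47% with quantile scaling, 30.1% with voom), 58.8% for L-ala against vehicle (40.7% and 13.3%) and 51.3% (70.4% with voom) between the mirror forms. Voom moved the median log2 fold change of all genes under L-ala to -0.10, against 0.01, and that of the members to -0.04, against 0.06. No paired analysis was possible because the labels give no replicate numbers. A member's median SE was 0.07 on the log2 scale. The smallest called change was 0.18 (Hars, L-ala), and 0.21 (Mars, D-ala) and 0.23 (Fars2, L-ala) were not called with 5 libraries a group.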
